A study of Oryza sativa with 4 samples.

Results

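DREB2 factors are transcription factors of the AP2/ERF family in plants, which bind the dehydration-responsive element in the promoters of genes for drought, salt and heat tolerance. In Arabidopsis the DREB2A protein is unstable in unstressed cells and accumulates under stress, and in rice the gene OsDREB2B is known for alternative splicing that yields a functional form under stress. Their relatives of the DREB1 or CBF type are best known from the response to cold.

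The 4 rice loci described here were taken from the deposited table by their identifiers, and the description of each names a factor of this type. They are Os04g0648900 (similar to DREB2F; OS04T0648900 in the table), Os02g0752800 and Os05g0346200 (both similar to DREB2B; OS02T0752800 and OS05T0346200) and Os01g0165000 (DRE binding protein 2; OS01T0165000). By their locus names they lie on chromosomes 4, 2, 5 and 1. They hold 6 of the 14122 transcripts of the table and are 4 of its 10455 loci. The descriptions of 3 loci name a DREB2B or DREB2F protein, and that of Os01g0165000 reads DRE binding protein 2, without a letter. The 4 are not every locus with such a description. Os09g0369050, similar to DRE binding factor 2, is not among them and is given below with the other AP2/ERF factors.

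The plants were wild-type rice, 2 weeks old, whose shoots were held in a water bath for 10 min at 42 °C (heat) or at 22 °C (control). Plants at both temperatures were thus inverted and submerged alike, and 10 shoots went into each sample. Ribosome profiling, which sequences the stretches of mRNA covered by ribosomes, gave 2 libraries at 42 °C and 2 at 22 °C. The table has a single score for each transcript at each temperature. It was taken as translational efficiency, the footprints on an mRNA relative to its amount, because the libraries were made to determine that quantity. The header gives no formula, no scaling to transcript length and no log step.

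No score has a replicate and the depth behind it is unknown, so no difference below was tested and calls are by size alone. A locus score is the mean of its transcripts, and a locus was called higher or lower at 42 °C when its scores, both above 0, differed at least 2-fold. The table does not separate footprints from RNA, and the libraries listed are all of ribosome profiling, with none of RNA. If the score is translational efficiency, a higher score cannot be told apart from less RNA, nor a lower one from more RNA. If it is footprints alone, a higher score cannot be told apart from more RNA, nor a lower one from less. In whole shoots, fewer cells of a type and less RNA per cell cannot be told apart either.

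The 4 loci did not move as a group. Os04g0648900 and Os05g0346200 were called higher at 42 °C, Os02g0752800 had a score at 42 °C but was listed at 0 at 22 °C, and Os01g0165000 was called lower. Of the 3 loci above 0 at both temperatures, 2 were thus called higher, as were 16.1% of the 9280 such loci in the table, and 1 was called lower, as were 21.6%. Their log2 ratios of 42 over 22 °C were 4.80, 1.16 and -2.19, with a median of 1.16, beside a median of 0.03 over all loci. At 42 °C the median score of the 4 loci was 0.134, and at 22 °C it was 0.0671. The medians of all loci were 0.0720 at 42 °C and 0.0792 at 22 °C.

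**Figure D1:**
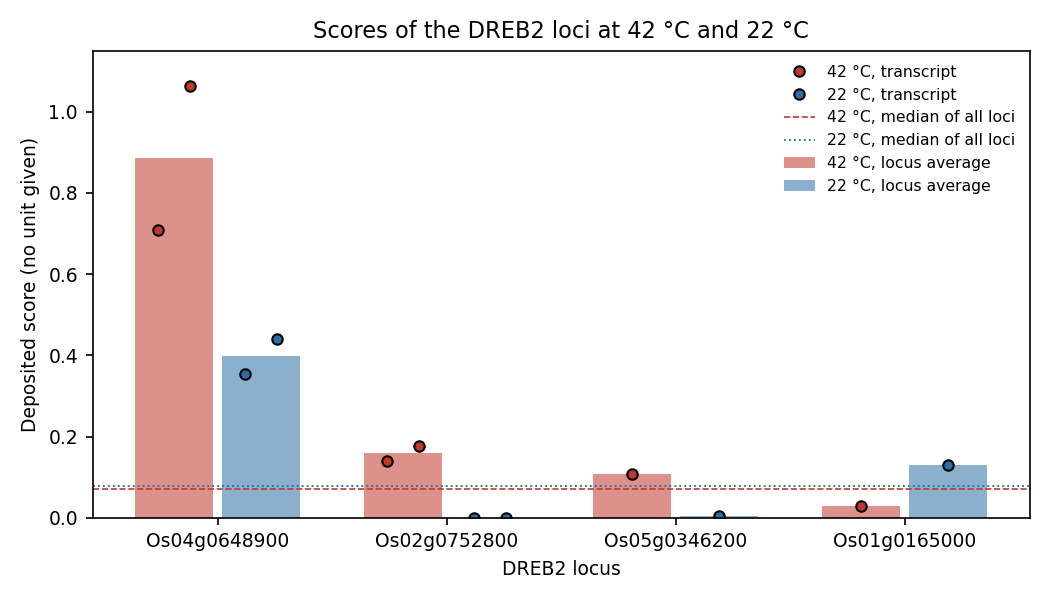
Deposited scores (no unit given, linear axis from 0) of the 4 DREB2 loci, with bars for locus averages, points for transcripts, and lines for the median of all loci at each temperature. Os04g0648900 has 0.886 at 42 °C and 0.397 at 22 °C, Os02g0752800 is listed at 0 at 22 °C in both transcripts, and Os01g0165000 alone has its lower bar at 42 °C.

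Os04g0648900, the DREB2F-like locus, had the highest score of the 4 at both temperatures. Its locus average was 0.886 at 42 °C and 0.397 at 22 °C, a 2.23-fold difference. Transcript OS04T0648900-01 had 0.709 at 42 °C and 0.353 at 22 °C, and OS04T0648900-02 had 1.06 at 42 °C and 0.441 at 22 °C. Each transcript was thus higher at 42 °C, by 2.01-fold in transcript 01, just past the 2-fold limit, and by 2.41-fold in transcript 02.

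Transcript 02 exceeded transcript 01 by 49.9% at 42 °C and by 25.0% at 22 °C. The log2 ratios of the 2 transcripts differed by 0.26, less than the median difference of 0.54 over the 1727 loci with 2 transcripts that were all above 0. Transcripts of a locus share exons and so reads, and their likeness is no replicate. In 76.1% of those 1727 loci both transcripts went the same way.

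In the whole table only 339 loci had a higher score than Os04g0648900 at 42 °C and 1139 did at 22 °C. Its difference of 0.489, 42 minus 22 °C, exceeded that of 99.0% of loci. Its ratio exceeded that of 86.7% of the 9280 loci with a ratio. Ratios depended on level, and among the 928 loci in the highest of 10 classes of mean score, to which it belongs, 8.08% were at least 2-fold higher and 51 had a ratio as large as its own or larger. Its log2 ratio was 0.88, short of the call, when ratios were centred on loci at or above the 75th percentile of mean score. It was 0.99, also short of the call, with 0.1 added to every score and 1.14 with 0.01 added.

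Os02g0752800, a DREB2B-like locus, was listed at 0 at 22 °C in both of its transcripts. At 42 °C transcript OS02T0752800-01 had 0.141 and OS02T0752800-02 had 0.177, with a locus average of 0.159, higher than 67.1% of all loci. No ratio can be given for it, and in a table without counts a score of 0 may stand for no footprints or for a value that was not estimated. Loci listed at 0 at 22 °C alone made up 2.24% of the table, 234 in all, while more loci, 480, were listed at 0 at 42 °C alone. Most of the 234 had low scores at 42 °C, with a median of 0.00520 and a 75th percentile of 0.0185. Os02g0752800 stood near the top of these, with 8 of the 234 above it. It was also 1 of 15 loci, among the 2205 with exactly 2 transcripts, in which both were listed at 0 at 22 °C and both were above 0 at 42 °C. As transcripts of a locus share reads, the 2 zeros are not independent.

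Os05g0346200, the other DREB2B-like locus, had 0.108 at 42 °C and 0.00387 at 22 °C in its single listed transcript, OS05T0346200-01. The 27.9-fold difference was the largest among the 3 loci with a ratio, and 81 of the 9280 loci had one as large or larger. In its own class of mean scores, 8 of 928 loci did, and 17.1% were at least 2-fold higher. The ratio rests on a very low score at 22 °C, at or under which lay 678 loci, 6.95% of those above 0. With 0.1 added to both scores the log2 ratio was 1.00 in place of 4.80, and with 0.01 added it was 3.09. The table lists transcript 01 of this locus alone, so splice forms could not be compared.

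Both DREB2B-like loci thus had a score at 42 °C somewhat above the median of all loci and a score at or near 0 at 22 °C. At 42 °C both transcripts of Os02g0752800, at 0.141 and 0.177, lay above the 0.108 of Os05g0346200. Without a spread between replicates it cannot be said whether these neighbours differ.

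Os01g0165000, described as DRE binding protein 2, went the other way. Its single transcript, OS01T0165000-01, had 0.0285 at 42 °C and 0.130 at 22 °C, a log2 ratio of -2.19, so that the score at 22 °C was 4.58 times that at 42 °C. Only 793 of the 9280 loci had a ratio as low or lower, and in its own class of mean scores 64 of 928 did, where 22.8% were at least 2-fold lower. At 22 °C it ranked above 62.2% of loci and at 42 °C above 34.3%. With 0.1 added to every score its log2 ratio was -0.84, which ends the call. That constant is above the median score of all loci at either temperature, and with 0.01 added the log2 ratio was -1.87. Os01g0165000 was the second highest of the 4 at 22 °C and the lowest at 42 °C.

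The order of the deposited scores therefore differed between the temperatures. At 42 °C it ran Os04g0648900, Os02g0752800, Os05g0346200 and Os01g0165000, and the highest score was 31.1 times the lowest. At 22 °C it ran Os04g0648900, Os01g0165000, Os05g0346200 and Os02g0752800, the last at 0. Os04g0648900 led both orders, and its lower transcript at each temperature still had a score above those of all the other DREB2 loci.

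**Figure D2:**
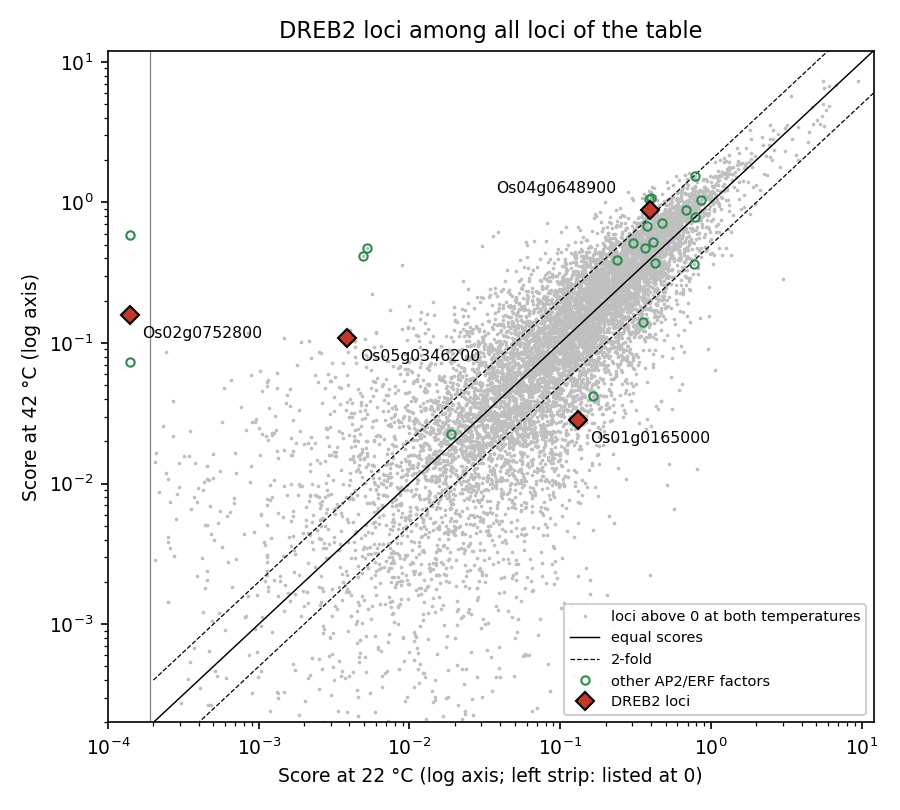
Score at 42 °C against score at 22 °C, both on log axes, for loci with scores above 0.0002 (grey), other AP2/ERF factors by description (green circles) and the DREB2 loci (red diamonds), with the strip at the left for loci listed at 0 at 22 °C. Os02g0752800 and Os05g0346200 lie far left of the diagonal beside a few other AP2/ERF factors, Os04g0648900 lies at the upper right at 0.886 against 0.397, and Os01g0165000 lies below the lower 2-fold line.

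Some other AP2/ERF factors had the same pattern of a score near 0 at 22 °C. Os09g0522000, similar to DREB1B, had 0.416 at 42 °C and 0.00489 at 22 °C, an 85.1-fold difference that 26 of the 9280 loci reached, itself included. Os09g0369050, similar to DRE binding factor 2, had 0.0731 at 42 °C and was listed at 0 at 22 °C. Os08g0408500, described by an ERF domain, had 0.472 at 42 °C and 0.00522 at 22 °C, the largest ratio of the list. Limits chosen after the scores were seen, under 0.01 at 22 °C and at least 0.1 at 42 °C, held for 33 loci, 0.316% of the table. Of these 5 were AP2/ERF factors by description, which is 15.2% of the 33 and 20.0% of the 25 AP2/ERF loci, the DREB2 loci included. They were Os02g0752800, Os05g0346200, Os09g0522000, Os08g0408500 and the RAP2.6-like Os08g0474000, which had 0.590 at 42 °C and was listed at 0 at 22 °C. The limits were drawn around the scores of Os02g0752800 and Os05g0346200, so these 2 met them by construction. Of the 21 other AP2/ERF loci 3 met them, and these shares were not tested. The reverse pattern, under 0.01 at 42 °C and at least 0.1 at 22 °C, held for 54 loci, 0.516% of the table, so that the count of 0 among the 25 AP2/ERF loci shows no contrast.

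The word list for the other AP2/ERF factors had 27 loci, of which 4 were at least 2-fold higher, 8 at least 2-fold lower and 13 within 2-fold, with 2 listed at 0 at 22 °C. Of those with a ratio 16.0% were called higher and 32.0% lower, beside 16.1% and 21.6% of all loci. The descriptions of 6 of the 27 name proteins of another kind, and all 6 had lower scores at 42 °C. Among them the list's smallest ratio was that of Os12g0623900, an ethylene-responsive methionine synthase, with 0.000876 at 42 °C and 0.0518 at 22 °C. Without them 4 of 19 loci with a ratio were called higher and 3 lower, 21.1% and 15.8%, near the shares of all loci, with a median log2 ratio of 0.38. By direction alone, 16 of the 21 loci kept were higher at 42 °C and 5 lower, beside 47.6% and 48.0% of all loci. Ratios depended on level, and this lean was not tested. Of the 6, Os01g0928000 is similar to ICE1, known in Arabidopsis as an activator of CBF genes in the cold, and had 0.326 at 42 °C and 0.635 at 22 °C. Os08g0500200, described as a CBF1-interacting co-repressor, had 0.00693 at 42 °C and 0.0140 at 22 °C. The CBF1 of that name is a factor of Notch signalling in animals and not a DREB factor.

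Heat stress transcription factors, which drive chaperone genes and of which HSFA3 is a DREB2A target in Arabidopsis, had 6 loci, with a median log2 ratio of 0.17. Of these 1 was called higher and 1 lower, 16.7% each, close to the 16.1% and 21.6% of all loci. Os02g0527300 had 0.0750 at 42 °C and 0.00718 at 22 °C, and Os03g0795900 had 0.00431 at 42 °C and 0.0331 at 22 °C. Both are described as similar to heat shock transcription factor 31. Of the 2 HSF-binding proteins, which bind these factors and restrain them, Os06g0274000 had 0.0892 at 42 °C and 0.0333 at 22 °C, and Os09g0375100 had 0.142 at 42 °C and 0.155 at 22 °C.

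Dehydrins and small heat shock proteins are kinds of genes that DREB2 factors are known to activate in Arabidopsis. Dehydrins and LEA proteins, which protect cells that lose water, had 6 loci, all within 2-fold and all with a higher score at 42 °C, with a median log2 ratio of 0.40. Of all loci with a ratio 62.3% lay within 2-fold, and 47.6% of all loci had a higher score at 42 °C. Ratios depended on level, and all the dehydrins and LEA proteins but Os01g0109000 lay in the 3 highest of 10 classes of mean score. From the lowest of these classes up, the median log2 ratios were 0.17, 0.32 and 0.29. The dehydrins and LEA proteins ranged from 0.11 in Os05g0584200 (0.337 at 42 °C and 0.313 at 22 °C) to 0.65 in Os01g0314800 (0.671 at 42 °C and 0.428 at 22 °C). Small heat shock proteins, which hold unfolding proteins in solution, had 11 loci, with 3 at least 2-fold lower, 0 at least 2-fold higher, 7 within 2-fold and 1 listed at 0 at both temperatures. Of all loci with a ratio 21.6% were called lower, from 3.56% in the highest class of mean score to 44.5% in the lowest. The 3 lower ones are 30.0% of the 10 small heat shock proteins with a ratio. Their median log2 ratio was -0.25, from -2.83 in Os07g0517100 (0.0251 at 42 °C and 0.178 at 22 °C) to 0.72 in Os07g0173100 (1.29 at 42 °C and 0.786 at 22 °C). Whether any of these loci is a target of a DREB2 factor in rice shoots was not analysed here.

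The words for regulators or partners of DREB2 factors found 5 loci, but 2 of these are of other kinds by description, among them the smallest ratio, that of the cell differentiation protein Os04g0613400 (0.00181 at 42 °C and 0.0281 at 22 °C). The other 3 were 2 NF-YA subunits and a histone-like factor. The histone-like locus, Os03g0413000, was listed at 0 at 42 °C and had 0.00407 at 22 °C. Of the 2 with a ratio 0 were past 2-fold, and 62.3% of all loci with a ratio lay within it. The NF-YA locus Os12g0613000 had the largest ratio, with 0.0265 at 42 °C and 0.0170 at 22 °C. Genes of abscisic acid and osmotic stress signalling had 23 loci, with 3 at least 2-fold higher, 5 at least 2-fold lower, 12 within 2-fold and 3 listed at 0 at 42 °C. Of the 20 with a ratio 15.0% were called higher and 25.0% lower, near the shares of all loci, with a median log2 ratio of -0.32. By direction alone, 7 of the 23 were higher at 42 °C and 16 lower, beside 47.6% and 48.0% of all loci. Ratios depended on level, and this lean was not tested. The ends of this list were both SAPK kinases, which osmotic stress activates. Os02g0551100 (SAPK6) had 0.121 at 42 °C and 0.0253 at 22 °C. Os01g0869900 (similar to SAPK4) had 0.00233 at 42 °C and 0.0512 at 22 °C.

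**Figure D3:**
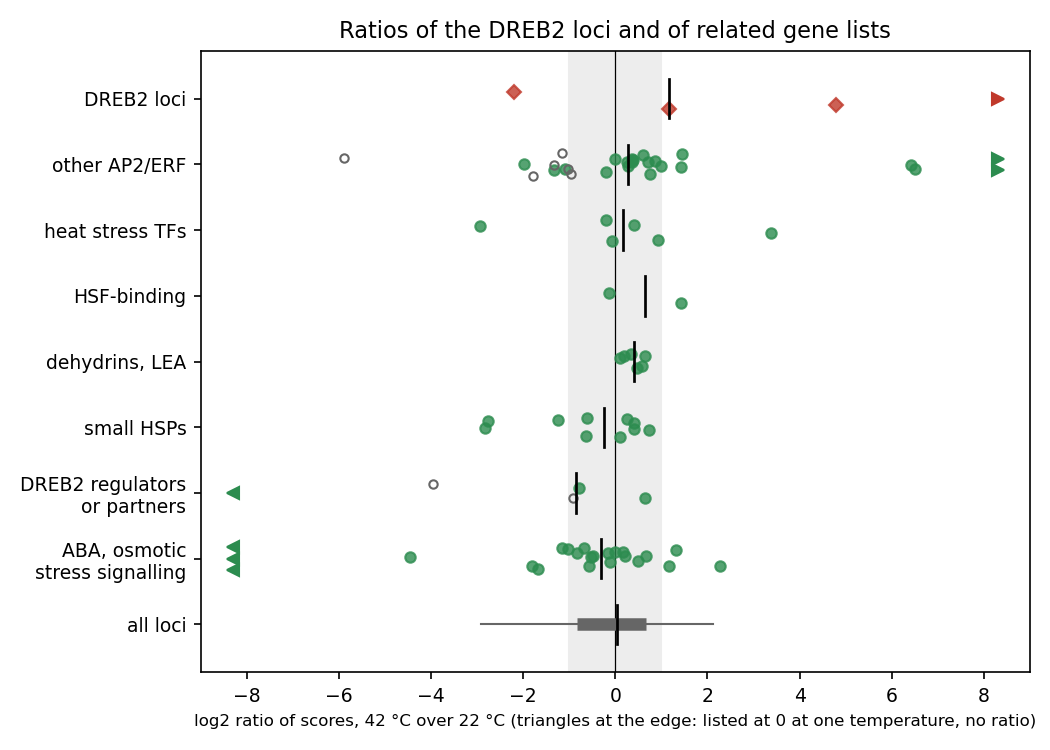
Log2 ratio of scores, 42 over 22 °C, of each locus in the DREB2 group and in 7 related lists, with black lines for medians, open circles for loci of another kind by description, the grey band for less than 2-fold and triangles for loci listed at 0 at one temperature. The bottom row gives all 9280 loci, with the bar from the 25th to the 75th percentile (-0.83 to 0.67) and the line from the 5th to the 95th. The 3 DREB2 loci with a ratio lie outside the band, on both sides of it, and Os02g0752800 is a triangle.

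Likeness of pattern was measured as the distance between log2 scores over the 2 temperatures, among loci whose descriptions say what the protein is. Nearest to Os04g0648900 were an alpha/beta hydrolase, Os09g0461700 (0.879 at 42 °C and 0.397 at 22 °C), and a bibenzyl synthase, Os11g0566800 (0.900 at 42 °C and 0.392 at 22 °C). Nearest to Os05g0346200 were a CTP synthase, Os01g0654100 (0.103 at 42 °C and 0.00438 at 22 °C), and a ribosomal protein S7, Os11g0544200 (0.124 at 42 °C and 0.00400 at 22 °C). Nearest to Os01g0165000 were an acyl carrier protein, Os11g0521500, and a glycine-rich protein, Os03g0786000. For Os02g0752800 the nearest loci listed at 0 at 22 °C were 2 kinase domain proteins, Os11g0672300 (0.155 at 42 °C) and Os11g0226201 (0.106 at 42 °C). With 2 values per locus many pairs lie close, and the distances describe these scores alone.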

How the data were processed

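The submitters' processing notes name cutadapt and Bowtie2 for the reads. Their versions, the genome build and the transcript models are not given in the sources used. The authors deposited 1 table with a score per transcript at each temperature and their difference, which matched the score at 42 °C minus that at 22 °C within 1e-05 in all 14122 transcripts. The score columns are headed by the temperature alone, per the file headers, and how the 2 libraries of each temperature were combined is not stated.

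From these, scores were averaged over the transcripts of each locus, and log2 ratios were computed for loci above 0 at both temperatures. Percentiles of scores are over all loci, and those of ratios over the loci with a ratio. Without values per replicate the planned fit across replicates could not be made. The DREB2 loci and the gene lists, set by words in the descriptions, were chosen with earlier results of these data known. Named are the DREB2 loci, other loci described by DREB or CBF, the largest and smallest ratio of each list and the 2 nearest loci. The RAP2.6-like locus and the loci of the closing section were chosen after their scores were seen. The RefSeq gene table for another assembly matched 0 of the 4 loci by name, so it was not used. The calls were run on simulated scores with known ratios and no noise, which checks the computation and not how reliable a call is. Python 3.11.15, numpy 2.4.6, pandas 2.3.3 and matplotlib 3.10.9 were used.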

Additional observations from a re-analysis of the deposited data

How the results depend on the processing

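The counts stayed at 2 loci higher and 1 lower under 1.5-fold calls, other ways to reduce transcripts to loci and centring on all loci. They also did with scores read as log2(1 + ratio) and at a mean score of at least 0.05. With 0.01 added to the scores 3 loci were higher and 1 lower. With each transcript on its own 3 transcripts were higher and 1 lower. Counting loci at 0 at one temperature, an alternative added after the scores were seen, gave 3 loci higher and 1 lower. At 4-fold, 1 locus was higher, since Os04g0648900 lay below. Centring on loci at or above the 75th percentile of mean score, a shift of 0.28 on the log2 scale, also left 1 higher, with Os04g0648900 at 0.88. With 0.1 added to every score 0 loci were lower, with Os01g0165000 at -0.84; Os04g0648900 was at 0.99, and the 2 higher were Os02g0752800 at 1.37 and Os05g0346200 at 1.00. At a mean score of at least 0.2, 1 was higher and 0 lower, as Os04g0648900 alone passes it. No ratio changed direction under any of these.

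No paired analysis was possible because the table holds 1 score per temperature. For the same reason fits without a replicate were not run. How far depth limits the scores near 0 is unknown.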

Other observations

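Among all loci listed at 0 at 22 °C alone, those with the highest scores at 42 °C and a description of the protein were of different kinds. Os07g0655800, an aspartic acid-rich protein, had 3.30 at 42 °C, the highest of the 234. The RAP2.6-like Os08g0474000 had 0.590 and Os07g0438600, with a subtilisin propeptide domain, 0.473. Os02g0181300, similar to a WRKY factor, had 0.292. The SAPK kinases, 10 loci by description, had 3 at least 2-fold higher, 3 at least 2-fold lower, 3 within 2-fold and 1 listed at 0 at 42 °C. Each count is 33.3% of the 9 with a ratio, beside 16.1% higher and 21.6% lower over all loci, and this list was chosen after the scores were seen. Os04g0432000 (SAPK7) had 0.399 at 42 °C and 0.161 at 22 °C, and Os03g0610900 (SAPK10) had 0.171 at 42 °C and 0.347 at 22 °C. None of these differences was tested.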
